A study of Mus musculus with 6 samples.

Results

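The muscle acetylcholine receptor and the proteins that gather it at the neuromuscular junction were followed through 10 genes, which are the 5 receptor subunit genes *Chrna1*, *Chrnb1*, *Chrnd*, *Chrng* and *Chrne*, the 4 genes *Musk*, *Lrp4*, *Dok7* and *Rapsn* of the receptor-clustering pathway, and *Ache*. They were chosen by symbol from the 54525 gene rows of the deposited tables, and all 10 were found and tested. RNA-seq was performed on C2C12 cells, an established line of mouse myoblasts that form multinucleated myotubes after a change to low serum. The data hold 3 libraries of wild-type, untreated myoblasts (day 0, D0) and 3 libraries of wild-type, untreated cultures after 5 days of differentiation in horse serum (D5). The labels call the cells of both groups mouse muscle myoblasts, and no nerve or other cell type was added by any protocol described.

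At the junction, acetylcholine released by the motor axon opens a receptor built from 5 subunit chains, with the alpha chain present more than once. Fetal receptors carry the gamma chain, encoded by *Chrng*, and adult receptors carry the epsilon chain, encoded by *Chrne*, in its place. Agrin from the nerve binds LRP4, which activates the receptor tyrosine kinase MuSK. DOK7 binds MuSK from inside the cell and is needed for its activity, and rapsyn, the product of *Rapsn*, holds the receptors in clusters. Acetylcholinesterase, the product of *Ache*, ends the signal by breaking down acetylcholine. Aneural myotubes in culture are known to make receptors and to cluster some of them without a nerve.

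Each myoblast library carried 36555048 to 40895840 gene counts and each D5 library 25449759 to 25811300. Values are given as CPM, counts per 1000000 after TMM scaling in edgeR, for comparing a gene between libraries, or as TPM, counts divided by exonic length and scaled to a sum of 1000000 in each library, for comparing genes with each other. D5 was tested against D0 with edgeR's quasi-likelihood test, and adjusted p-values are over the 16290 genes tested. Errors given with a log2 fold change are standard errors. Detection was taken to need more than 3 counts in a library, a limit that covers counting error only. Differentiation was seen in the marker genes, since all 5 myotube markers rose (sum of 26.3 to 33.5 CPM at D0 and 9815 to 10492 CPM at D5). Of the 5 motor neuron markers, *Chat*, *Slc18a3*, *Slc5a7* and *Mnx1* had 0 counts in every library, and *Isl1* had at most 2 counts at D0 and 13 to 18 at D5. The Schwann cell markers *Sox10* and *S100b* had at most 3 counts in any library. The summed markers went from 1.79 to 2.05 CPM at D0 to 1.13 to 1.23 CPM at D5 for Schwann cells, from 2.46 to 2.97 CPM to 0.325 to 0.402 CPM for endothelial cells and from 3.05 to 3.31 CPM to 1.85 to 2.60 CPM for immune cells. Of the 5 myoblast markers 4 fell and *Des* rose (sum of 2664 to 2759 CPM at D0 and 3691 to 3719 CPM at D5), and the 3 fibro-adipogenic markers summed to 33.9 to 37.4 CPM at D0 and 54.9 to 59.7 CPM at D5. Most of that sum was *Ly6a*, which had 35.0 CPM on average at D0 and 33.4 at D5 (edgeR adjusted p = 0.22), whereas *Pdgfra* rose 22.9-fold, from 1.04 ± 0.151 CPM to 23.96 ± 1.77 CPM (edgeR adjusted p = 2.1e-26), and *Dpp4* went from 0 counts in every D0 library to 9, 6 and 3 counts at D5. The part of these other cell types in the results was not tested. These are whole cultures, in which fewer cells of a type and less RNA per cell cannot be told apart.

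Of the 10 genes, 9 rose at D5 and 1, *Rapsn*, did not pass the test in either direction. For comparison, 42.2% of all genes tested were called higher and 40.8% lower, 82.9% in all. In 6 of the 10 genes (*Chrnd*, *Chrng*, *Chrne*, *Musk*, *Lrp4* and *Ache*) the log2 fold change was above 1, which was the case for 19.3% of all genes tested. The median log2 fold change was 2.31 over the 10 genes, also with *Chrne* at its lower bound, against 0.0022 over all genes tested. In 9 genes every D5 library lay above every D0 library, a position held by 42.2% of all genes tested, while 41.1% had every D5 library below. The size of the change was far from uniform, and the receptor subunits alone spanned the range from a log2 fold change of 0.66 to a gene that was not detected at D0.

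**Figure D1:**
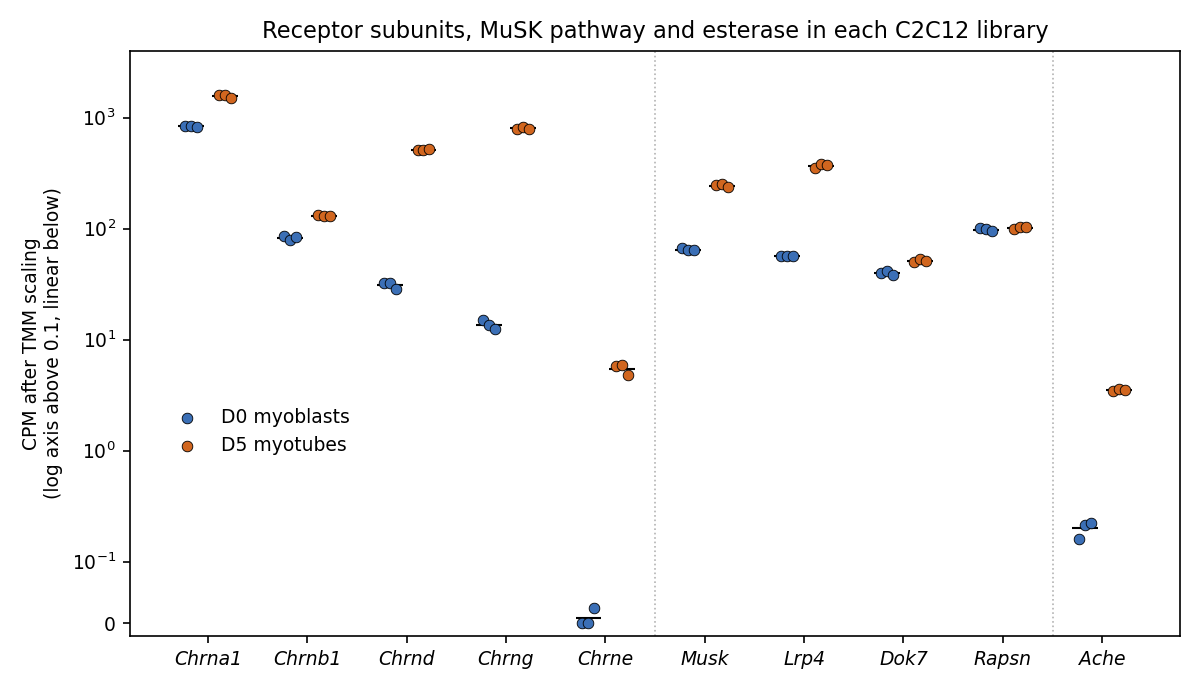
CPM after TMM scaling (y axis, logarithmic above 0.1 and linear below) of each gene in the 3 D0 (blue) and 3 D5 (orange) libraries, with a line at each group mean and dotted lines between receptor subunits, MuSK pathway and esterase. *Chrng* moved from 12.3 to 14.9 CPM at D0 to 792 to 830.0 CPM at D5, while the *Rapsn* libraries of both groups lay between 94.6 and 103 CPM.

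The alpha subunit gene *Chrna1* (ENSMUSG00000027107.3, minus strand of chr2:73563215-73580338 of GRCm38) was already abundant in myoblasts. Its D0 libraries had 839.8, 845 and 819 CPM and its D5 libraries 1608, 1613 and 1494 CPM, without overlap. The rise was 1.88-fold, or 0.91 on the log2 scale with an error of 0.034 (edgeR adjusted p = 7.4e-21). The beta subunit gene *Chrnb1* (ENSMUSG00000041189.9, minus strand of chr11:69784036-69795943) changed least among the subunits. It had 86.5, 78.5 and 83.2 CPM at D0 and 132, 130.4 and 130.3 CPM at D5, or 0.66 on the log2 scale with an error of 0.037 (edgeR adjusted p = 1.8e-16). For both genes the call was lost when the libraries were scaled to the ERCC spike-ins, synthetic RNAs added to each sample, with log2 fold changes of 0.37 and 0.095. The errors with spike-in scaling were far larger, 0.51 and 0.52. That scaling moved the median of all genes to -0.58, so relative to the median gene the values were 0.94 for *Chrna1* and 0.67 for *Chrnb1*. Subtracting the median largely undoes the change of scaling and returns the values after TMM. It is therefore no separate support for the rise.

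The delta and gamma subunit genes rose far more. *Chrnd* (ENSMUSG00000026251.13) and *Chrng* (ENSMUSG00000026253.14) lie in the same direction on the plus strand of chromosome 1 of GRCm38, at chr1:87190607-87200070 and chr1:87204657-87212694, with 4586 bases between them. *Chrnd* had 32.3, 32.4 and 28.9 CPM in the D0 libraries and 512, 507 and 522 CPM in the D5 libraries. This was a 16.5-fold rise (log2 fold change 4.04 with an error of 0.041, edgeR adjusted p = 1.6e-35). *Chrng* had 14.9, 13.4 and 12.3 CPM in the D0 libraries and 793, 830.0 and 792 CPM in the D5 libraries. It rose 59.5-fold (log2 fold change 5.89 with an error of 0.049, edgeR adjusted p = 7.1e-38), and 2.91% of the genes tested had a larger log2 fold change. Thus the 3 libraries of each group lay close together while the groups were more than an order of magnitude apart.

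The epsilon subunit gene *Chrne* (ENSMUSG00000014609.16, minus strand of chr11:70614883-70619216) was not detected in myoblasts. It was counted 0, 0 and 1 times in the myoblast libraries and 145, 145 and 119 times in those of D5, which are 5.77, 5.88 and 4.78 CPM. Its D5 level was at least 72.8-fold above the limit of 3 counts per D0 library (edgeR adjusted p = 5.8e-20). The fitted log2 fold change, which is no bound, was 8.81 and became 10.39 without D0 replicate 3, the library with the single count. The epsilon gene was the scarcest of the subunits in both groups.

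The sequences before the transcription start are shown for 4 genes with an entry in the promoter table: the abundant *Chrna1*, the gamma and epsilon genes, of which the first was the stronger at both days, and the kinase gene *Musk*. They are RefSeq sequences of GRCm38.p6, 250 bases up to the start, written from 5′ to 3′ on the strand of the gene, at chr2:73580339-73580588 (minus strand), chr1:87205561-87205810 (plus strand), chr11:70619195-70619444 (minus strand) and chr4:58285712-58285961 (plus strand). Capitals mark E-boxes (CANNTG, the letters bound by MyoD and myogenin) and the N-box (CCGGAA, the letters bound by GABP), searched on both strands.
*Chrna1*: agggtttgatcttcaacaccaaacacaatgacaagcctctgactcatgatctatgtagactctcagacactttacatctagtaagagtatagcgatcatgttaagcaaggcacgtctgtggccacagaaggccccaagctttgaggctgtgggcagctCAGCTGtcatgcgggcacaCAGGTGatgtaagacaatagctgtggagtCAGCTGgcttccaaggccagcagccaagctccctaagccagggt
*Chrng*: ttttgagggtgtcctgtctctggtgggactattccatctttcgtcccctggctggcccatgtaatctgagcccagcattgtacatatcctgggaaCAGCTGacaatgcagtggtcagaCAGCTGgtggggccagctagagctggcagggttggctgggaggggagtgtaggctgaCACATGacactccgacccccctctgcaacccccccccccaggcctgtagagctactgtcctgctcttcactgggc
*Chrne*: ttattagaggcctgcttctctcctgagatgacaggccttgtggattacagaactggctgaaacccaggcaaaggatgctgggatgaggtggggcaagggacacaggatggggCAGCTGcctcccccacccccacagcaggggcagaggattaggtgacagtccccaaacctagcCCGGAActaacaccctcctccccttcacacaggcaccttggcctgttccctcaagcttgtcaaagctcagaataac
*Musk*: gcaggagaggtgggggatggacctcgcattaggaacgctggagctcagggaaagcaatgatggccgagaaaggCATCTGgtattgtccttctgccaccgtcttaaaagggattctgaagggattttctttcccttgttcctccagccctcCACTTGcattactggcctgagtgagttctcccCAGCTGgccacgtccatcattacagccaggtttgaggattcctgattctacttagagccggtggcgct

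The windows of *Chrna1*, *Chrng* and *Musk* each held 3 E-boxes, that of *Chrne* held 1, and 12.2% of the 32851 promoter windows of the same length in the RefSeq table held 3 or more. At least 1 E-box was found in 66.2% of all windows. The form CAGCTG, which is contained in CANNTG, occurred 2 times in *Chrna1* and in *Chrng* and 1 time in *Chrne* and in *Musk*. The windows of *Chrnb1*, *Dok7* and *Ache*, whose sequences are not shown, did not hold this form. Among all windows 13% held it at least 1 time and 1.26% held it 2 times or more. The N-box was present in *Chrne* only among the 7 genes with a sequence, and in 12% of all windows. The window of *Chrnb1*, whose change was small, also held 3 E-boxes, none of them CAGCTG, and that of *Ache* held 1. *Chrnd*, *Lrp4* and *Rapsn* had no entry. The first of the 2 *Dok7* windows held 1 E-box and the second none. The RefSeq starts used for *Chrng*, *Ache* and the second *Dok7* window lie inside the span that GENCODE gives the gene, and those of *Chrnb1*, *Chrne* and *Musk* do so by a few bases. These are matches of letters, and binding was not measured.

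**Figure D2:**
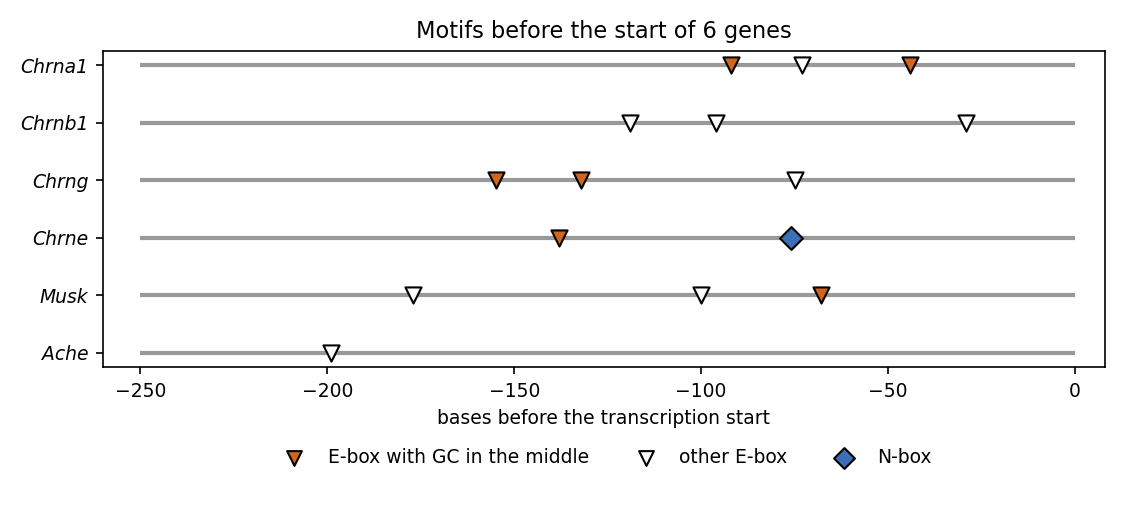
Position of E-boxes (triangles, orange where the middle bases are GC and white otherwise) and N-boxes (blue diamonds) in the 250 bases before the transcription start of 6 genes, with the x axis in bases before the start and 1 row per gene. *Chrna1* and *Chrng* each hold 2 orange triangles, and the N-box lies in the row of *Chrne*.

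Because TPM accounts for length, it allows the subunits to be compared with each other. At D0 the mean levels were 658 ± 9.11 TPM for *Chrna1*, 113 ± 4.72 TPM for *Chrnb1*, 32.8 ± 1.79 TPM for *Chrnd* and 11.3 ± 0.887 TPM for *Chrng* (mean ± SD, n = 3 per group). At D5 they were 1111 ± 57.2 TPM for *Chrna1*, 160.2 ± 4.04 TPM for *Chrnb1*, 484 ± 12.6 TPM for *Chrnd* and 599 ± 11.8 TPM for *Chrng* (mean ± SD, n = 3 per group). *Chrne* reached 10.1 ± 1.16 TPM (SD, n = 3). In myoblasts the alpha gene therefore made up 80.1%, 81.4% and 80.7% of the summed subunit TPM in the 3 libraries, and in D5 cultures 47.7%, 47.4% and 45.8%. The gamma gene went from 1.38 ± 0.109% to 25.4 ± 0.481% of the sum and the delta gene from 4.02 ± 0.200% to 20.5 ± 0.761% (mean ± SD, n = 3 per group). Among the 4 subunits of the fetal receptor, the level of the highest was 58.5 times that of the lowest at D0 (*Chrna1* over *Chrng*) and 6.94 times at D5 (*Chrna1* over *Chrnb1*). The summed TPM of the 5 subunit genes was 815 ± 5.41 at D0 and 2365 ± 72.2 at D5 (mean ± SD, n = 3 per group).

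**Figure D3:**
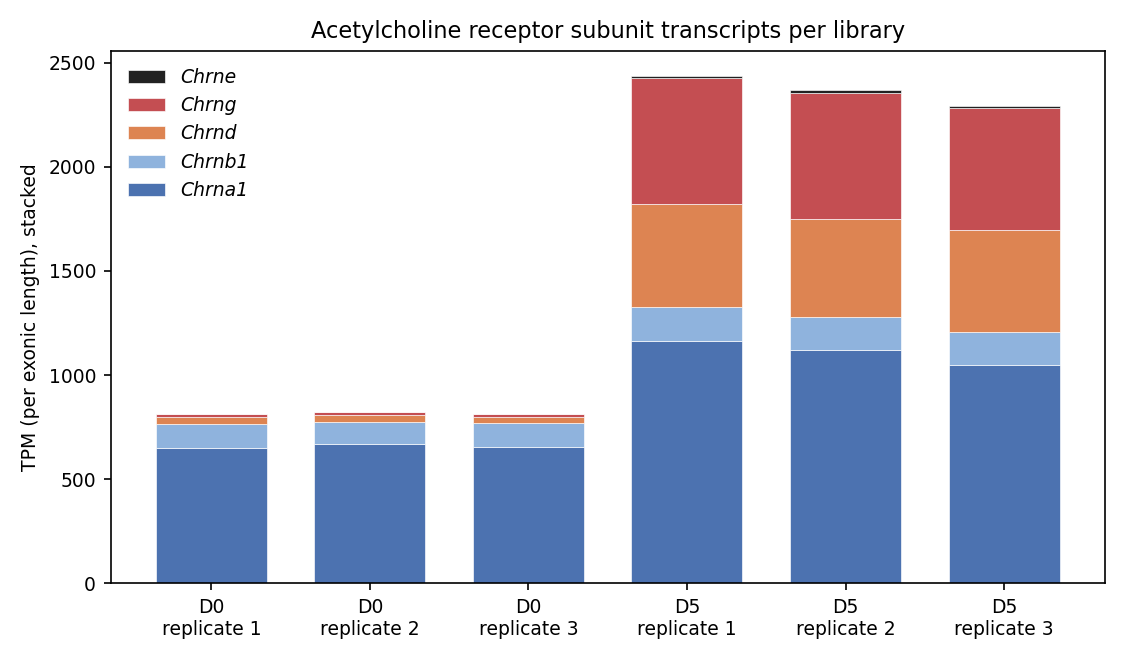
Stacked bars of the TPM of the 5 receptor subunit genes (y axis) in each of the 6 libraries (x axis), starting at 0. The sums lie between 811 and 821 TPM at D0 and between 2292 and 2436 TPM at D5, and the added height is mostly *Chrnd*, *Chrng* and *Chrna1*.

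Ratios within a library do not depend on how the libraries are scaled, and 8 were computed per exonic base. The ratio of *Chrng* to *Chrna1* was 0.0187, 0.0168 and 0.0159 in the D0 libraries and 0.520, 0.542 and 0.558 in the D5 libraries. That of *Chrnd* to *Chrna1* was 0.0514, 0.0511 and 0.0470 at D0 and 0.425, 0.419 and 0.466 at D5. Both subunits thus gained on the alpha subunit in every D5 library. The order of gamma and delta was inverted, since the ratio of *Chrng* to *Chrnd* was 0.364, 0.328 and 0.338 at D0 and 1.22, 1.29 and 1.20 at D5. *Chrnb1* lost ground to *Chrna1*, from 0.178, 0.161 and 0.176 at D0 to 0.142, 0.140 and 0.151 at D5. For each of the 8 ratios, with 0.5 added to each count, the groups did not overlap and the exact two-sided permutation test gave p = 0.1, the smallest value that 3 libraries against 3 allow, and 0.1 after adjustment over the 8.

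The exchange of gamma for epsilon was examined as the share of *Chrne* in the counts of both genes. At D5 it was 0.722%, 0.704% and 0.601% in the 3 libraries, and the exact 95% binomial intervals ran from 0.498% to 0.850% over the libraries. At D0 it was 0 of 558, 0 of 565 and 1 of 498 counts, where 3 counts would be 0.538%, 0.531% and 0.602%, and the exact 95% intervals reached up to 0.659%, 0.651% and 1.11%. The intervals of single D0 and D5 libraries thus overlapped. Summed over the libraries, the share was 0.0617% at D0 (1 of 1621 counts, exact 95% interval 0.00156% to 0.343%) and 0.676% at D5 (409 of 60484 counts, 0.612% to 0.745%), and these intervals, which cover counting error only, did not overlap. Corrected for length, the epsilon gene was 1.76%, 1.72% and 1.47% of both at D5. The difference of the log2 ratio of *Chrng* to *Chrne* between D5 and D0 depended on the value added to each count, with -2.35 for 0.5, -0.70 for 2 and -0.19 for 3. With 3 added the exact permutation test gave p = 0.4 and the groups overlapped.

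Within the MuSK pathway the kinase and its co-receptor rose, the adaptor rose less, and the scaffold did not pass the test. *Musk* (ENSMUSG00000057280.15, plus strand of chr4:58285960-58374303) had 66.4, 63.9 and 63.6 CPM in the D0 libraries and 248, 251 and 235 CPM in the D5 libraries. It rose 3.78-fold (log2 fold change 1.92 with an error of 0.036, edgeR adjusted p = 8.3e-29). *Lrp4* (ENSMUSG00000027253.15, plus strand of chr2:91457511-91513779), the agrin receptor, had 56.6, 56.5 and 56.4 CPM at D0 and 349.9, 379 and 375 CPM at D5. This was a 6.51-fold rise (log2 fold change 2.70 with an error of 0.037, edgeR adjusted p = 2.5e-32). Per length, *Lrp4* stayed below *Musk* in every library, with a ratio of 0.307, 0.318 and 0.319 at D0 and 0.507, 0.543 and 0.575 at D5.

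*Dok7* (ENSMUSG00000044716.12, plus strand of chr5:35056766-35087839) had 39.5, 41.9 and 38.2 CPM at D0 and 50.05, 53.4 and 51.0 CPM at D5. The groups did not overlap, and the rise was 1.29-fold (log2 fold change 0.37 with an error of 0.045, edgeR adjusted p = 1.2e-08). With spike-in scaling the value was -0.18 (edgeR adjusted p = 0.81), which is 0.40 above the median gene. That distance largely returns the value of 0.37 after TMM and is no separate support for the rise. Relative to *Musk* per exonic base, *Dok7* went from 0.525, 0.579 and 0.530 at D0 to 0.178, 0.188 and 0.192 at D5.

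*Rapsn* (ENSMUSG00000002104.11, plus strand of chr2:91035620-91045729) had 100.4, 98.9 and 94.6 CPM at D0 and 99.8, 103 and 103 CPM at D5, and the groups overlapped. Its log2 fold change was 0.058 with an error of 0.036 (edgeR adjusted p = 0.13), with a negative sign when the libraries were scaled to total counts (-0.026) or to the spike-ins (-0.50), and neither passed the threshold. In TPM the D5 libraries, with 175.6, 174.9 and 176.0, lay below the D0 libraries, with 189.5, 190.3 and 184.1. In myoblasts it was the second most abundant of the 10 transcripts per length, after *Chrna1*. Its ratio to *Chrna1* fell from 0.291, 0.285 and 0.281 at D0 to 0.151, 0.156 and 0.168 at D5.

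*Ache* (ENSMUSG00000023328.14, plus strand of chr5:137287519-137294466) was scarce throughout. It was counted 6, 9 and 9 times in the myoblast libraries and 87, 88 and 87 times in those of D5, which are 0.160, 0.214 and 0.224 CPM and 3.46, 3.57 and 3.50 CPM. This was a 17.2-fold rise (log2 fold change 4.11 with an error of 0.23, edgeR adjusted p = 1.8e-16). At D5 its level of 2.35 ± 0.0224 TPM (SD, n = 3) was the lowest of the 10 genes, below that of *Chrne*. The annotation lists 9 *Ache* transcripts, and counts per gene do not separate the forms that are anchored to membranes or to collagen. Of its exonic length, 2.12% overlaps an antisense gene, and 0.222% of that of *Rapsn* does. The other 8 genes share no exonic base with another annotated gene, and no 50-base stretch of any of the 10 genes' transcripts occurs in another of them.

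In the order of TPM levels at D0, *Chrna1* was followed by *Rapsn*, *Chrnb1*, *Musk*, *Chrnd*, *Dok7*, *Lrp4*, *Chrng*, *Ache* and *Chrne*. The libraries of *Chrnd* and *Dok7* overlapped, and those of all other neighbors did not. At D5 the order was *Chrna1*, *Chrng*, *Chrnd*, *Musk*, *Rapsn*, *Chrnb1*, *Lrp4*, *Dok7*, *Chrne* and *Ache*, with no overlap between neighbors. The closest neighbors at D5 were *Rapsn* and *Chrnb1*, whose mean levels differed 1.10-fold. *Chrng* moved from the eighth place to the second.

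**Figure D4:**
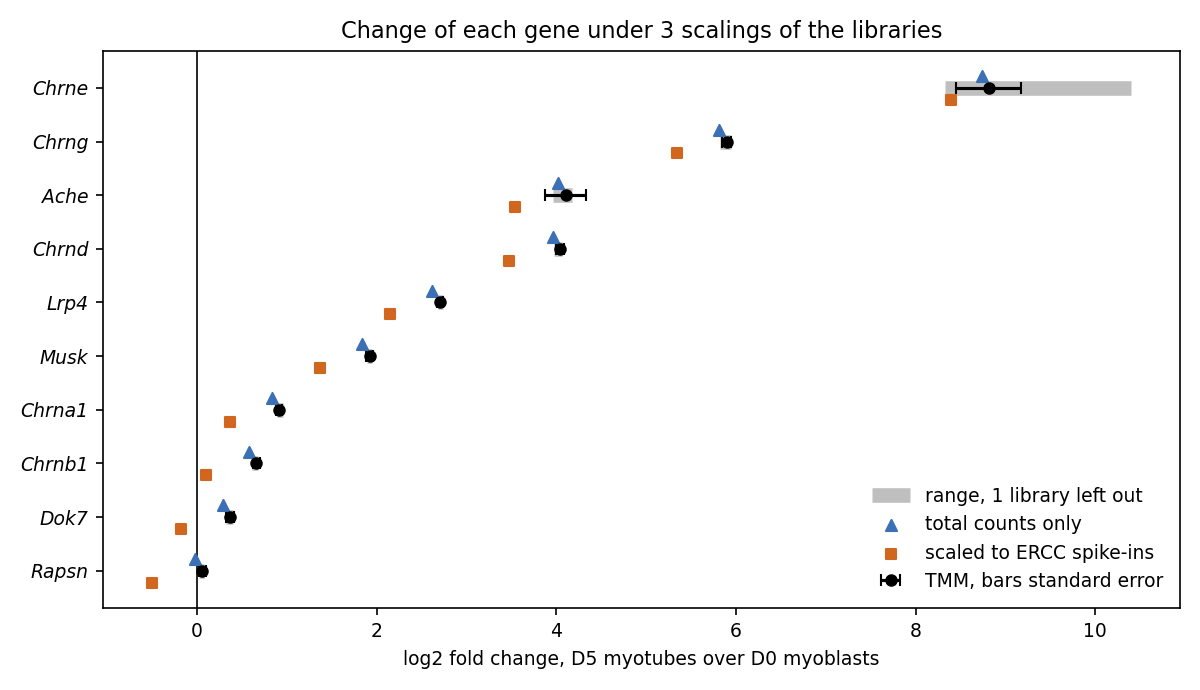
Log2 fold change of D5 over D0 (x axis) for each gene (rows) with TMM scaling (black, bars are standard errors), total counts only (blue) and spike-in scaling (orange), with a gray bar for the range when 1 library was left out. *Chrne*, *Chrng*, *Ache*, *Chrnd*, *Lrp4* and *Musk* lie above 1 under all 3 scalings, whereas *Dok7* and *Rapsn* change sign.

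Genes with a profile like that of *Chrna1*, *Chrng* and *Musk* were sought by the distance of log2 CPM, relative to the D0 mean, over the 6 libraries among 11887 genes. The nearest to *Chrna1* were *Slc20a2*, *Oxr1* and *Focad*, with distances of 0.062 to 0.065 and log2 fold changes of 0.92 to 0.94. The nearest to *Musk* were *Stim1*, which encodes the calcium sensor of the sarcoplasmic reticulum, *Dnase2a* and *Copz2*, with distances of 0.060 to 0.091. The nearest to *Chrng* were *Afap1l2*, *Unc45b*, which encodes a myosin chaperone, and *2310043L19Rik*, at larger distances of 0.20 to 0.25 and with log2 fold changes of 6.03, 5.93 and 6.96. The last of them had a mean of 0.042 CPM at D0, under the limit of 3 counts, so its distance depends on the prior count. *Unc45b* was at 3.92 ± 0.0899 CPM in myoblasts and 240.1 ± 7.24 CPM at D5 (mean ± SD, n = 3 per group). With 2 groups of libraries, such distances mainly compare the sizes of 1 difference.

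Besides the 10 genes, 77 others were listed in 8 groups. The groups hold genes of the junction and also myogenic factors, neuronal receptor subunits and general folding and glycosylation genes. Of the 77, 61 passed the filter on low counts, 35 rose and 24 fell. These are 57.4% and 39.3% of the tested genes, against 42.2% and 40.8% of all genes tested, so that being called was common in both. The median log2 fold change of the tested genes was 0.29. With spike-in scaling 21 of the 61 passed the threshold and 13 changed sign. Of the 17 signaling partners of agrin and MuSK, 7 rose and 9 fell (41.2% and 52.9%), with a median of -0.16, and the share that rose was close to the 42.2% of all genes tested. *Agrn* itself, which muscle also makes, was at 38.8 ± 2.32 CPM in myoblasts and 49.2 ± 0.809 CPM at D5 (mean ± SD, n = 3 per group), or 0.34 on the log2 scale (edgeR adjusted p = 7.4e-08). Its sign changed with spike-in scaling (-0.22). *Src* and *Abl1*, kinases that act beside MuSK, fell, with log2 fold changes of -1.82 and -1.17, and *Dvl1*, a Wnt pathway adaptor, rose by 1.03, a call that was lost with spike-in scaling.

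*Colq* encodes the collagen tail that anchors acetylcholinesterase in the synaptic basal lamina. It was counted 1, 0 and 0 times in the myoblast libraries and 222, 205 and 207 times in those of D5, at least 113-fold higher (edgeR adjusted p = 1.3e-22), and reached 6.93 ± 0.384 TPM (SD, n = 3), above *Ache* at D5. *Bche*, the related butyrylcholinesterase, had 3, 5 and 3 counts at D0 and 50, 38 and 36 at D5 (edgeR adjusted p = 1.5e-12), and no fold is given because the D0 counts lie at or near the limit of 3. *Prima1*, the membrane anchor of the esterase in neurons, had 0 counts in every library. Thus the collagen tail gene, but not the membrane anchor gene, was detected in D5 cultures.

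Of the 11 neuronal nicotinic subunit genes, 8 had at most 3 counts in every library and 1, *Chrnb2*, was tested. *Chrnb2* had 18, 22 and 12 counts at D0 and 44, 38 and 37 counts at D5, or 1.87 on the log2 scale (edgeR adjusted p = 5.8e-08), which missed the threshold with spike-in scaling. Of the 5 genes for receptor folding, the chaperone genes *Canx* and *Hspa5* fell, with log2 fold changes of -0.34 and -0.28, and *Calr* had 0.029 (edgeR adjusted p = 0.40), a value that was negative with total counts or the ERCC spike-ins. Both falls missed the threshold with spike-in scaling. *Ric3* and *Tmem35a*, which assist the assembly of neuronal receptors, had at most 1 count in any library.

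In the group for synaptic transcription 4 of the 8 tested genes rose and 4 fell, where 42.2% and 40.8% of all genes did. *Erbb3*, a neuregulin receptor, was at 4.04 ± 0.111 CPM in myoblasts and 221 ± 6.28 CPM at D5 (mean ± SD, n = 3 per group), or 5.77 on the log2 scale (edgeR adjusted p = 3.8e-37). *Nrg1*, its ligand, fell from 94.0 ± 1.47 CPM to 28.7 ± 0.617 CPM (mean ± SD, n = 3 per group), or -1.71 on the log2 scale. *Etv5*, an ETS factor of synaptic nuclei, rose, with a log2 fold change of 1.78 that missed the threshold with spike-in scaling. The other ETS genes of the group, *Etv4* and the GABP subunit gene *Gabpa*, fell, with log2 fold changes of -1.52 and -0.22. That of *Gabpa* missed the threshold with spike-in scaling. The second GABP subunit gene, *Gabpb1*, which is not an ETS gene, also fell, with -0.73. Of the myogenic factors, *Myog* and *Mef2c* rose, with log2 fold changes of 7.54 and 7.96, and *Myod1* fell, with -0.71.

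Of the 19 genes for the synaptic basal lamina and the postsynaptic scaffold, 14 rose and 4 fell, with a median of 1.27 over the 18 tested. These are 77.8% and 22.2%, against 42.2% and 40.8% of all genes tested. *Scn4a*, the muscle sodium channel concentrated in the junctional folds, was counted 1, 4 and 3 times in the myoblast libraries, at or near the limit of 3 counts, while its D5 level was 174 ± 6.26 CPM (SD, n = 3). *Nid2*, a nidogen, rose from 16.1 ± 0.947 CPM to 470.3 ± 15.4 CPM (mean ± SD, n = 3 per group), and *Lama4*, a laminin chain, was at least 92.8-fold higher. For the 3 genes edgeR gave adjusted p = 3.9e-37, 7.9e-37 and 2.4e-20. Of the 5 glycosylation enzymes whose loss causes congenital myasthenia, *Dpagt1*, *Alg2* and *Alg14* fell, with log2 fold changes of -0.50, -0.18 and -0.48. *Gfpt1* and *Gmppb* rose by 0.10 and 0.29 on the log2 scale, and both values were negative with spike-in scaling. None of the 5 calls held with that scaling, and that of *Gfpt1* was also lost with total counts.

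**Figure D5:**
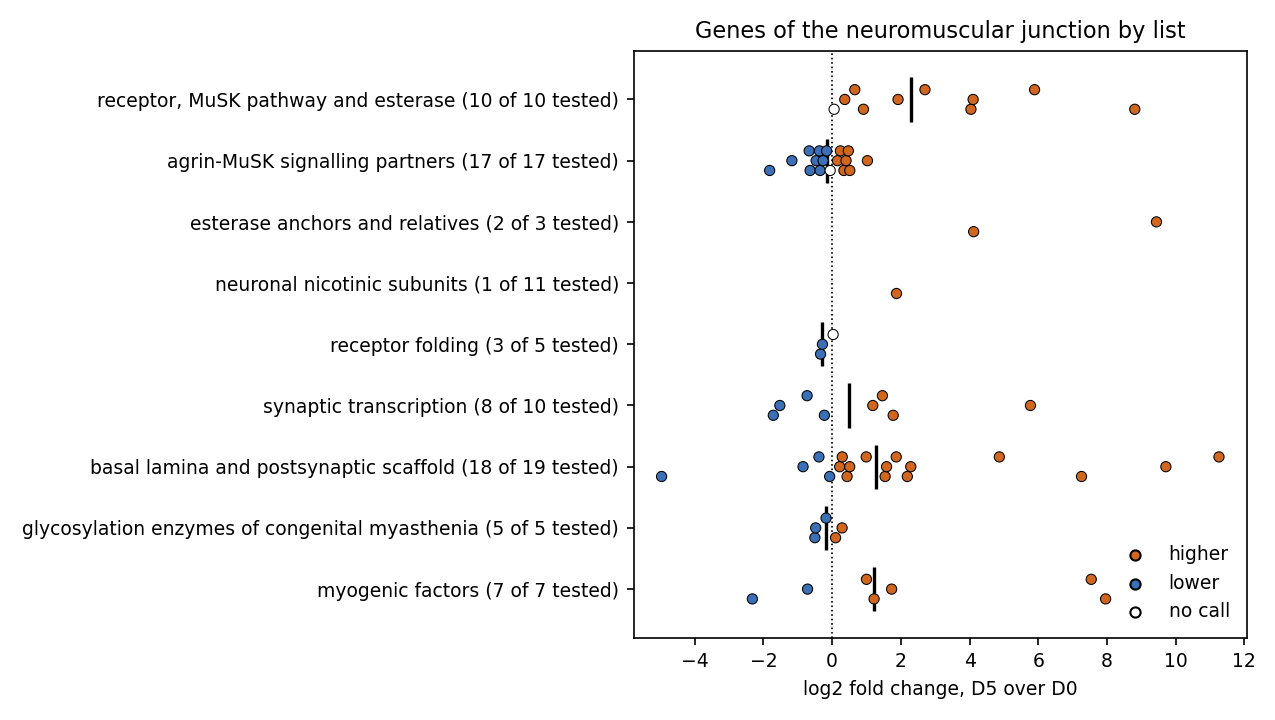
Log2 fold change of D5 over D0 (x axis) for each tested gene, in rows by group, with called higher in orange, called lower in blue, no call in white and a black line at the median of groups with 3 or more tested genes. The row of the 10 genes has a median of 2.31 and no blue point. Values of genes at or near the limit of 3 counts at D0 or D5 are fitted values, not bounds.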

How the data were processed

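RNA-seq covered 3 samples of C2C12 myoblasts (D0) and 3 samples of myotubes (D5). With reads mapped to GRCm38, the authors ran featureCounts and deposited raw counts per gene, 1 file for each library. The paper's methods name HISAT2 and FastQC, and the labels name Tophat2 2.0.0, NGS-QC-Toolkit 2.3.3 and DESeq2 1.6.3. Which of them made these counts, whether strand was used, and how multi-mapping reads were handled are not given in the sources used here. The labels give 3 samples per day and do not say how they were kept apart. The p-values therefore measure only the spread between these libraries, which may be technical. Each file also lists 92 ERCC rows (0.720% to 2.09% of the counts) and 1 unnamed row that equals the column total. None of these rows was tested or entered a library size, except that the ERCC sums served as library sizes in the spike-in scaling.

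Low genes were removed by filterByExpr, and edgeR 4.0.16 (R 4.3.3) gave TMM factors, CPM and quasi-likelihood tests, with Benjamini-Hochberg adjustment and a threshold of 0.05. The standard error of a log2 fold change was derived from its F statistic, as |log2 fold change| over root F. TPM used the exonic length of GENCODE M21, the annotation of GRCm38 that held 99.9% of the gene identifiers. Ratios had 0.5 added to each count. Distances used log2 CPM with a prior count of 2, among genes whose mean reached 100 counts at D0 or D5. Binomial intervals (Clopper-Pearson) used SciPy 1.17.1. The scripts were tested on simulated data.

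The alternatives were DESeq2 1.42.0, upper-quartile factors, total counts, the ERCC spike-ins, no filter, a minimum of 10 counts throughout, leaving out each library and the replicate number as a block. The named genes are the 10 genes, *Chrnb2*, all genes of lists of up to 5 genes, and *Agrn*, *Myod1*, *Myog* and *Mef2c*. Of the other longer lists, the 3 called genes with the largest change and the same minimum are named. *Chrnb2* was named after its values were seen, as the only neuronal subunit tested, and so were *Etv4*, *Gabpa*, *Gabpb1* and the single markers *Isl1*, *Des*, *Ly6a*, *Pdgfra* and *Dpp4*. The genes and lists were chosen with earlier results of these data known. Replicate pairs differed by a chi-square per degree of freedom of 2.16 to 3.45, above sampling noise, and each library was counted as 1 sample.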

Additional observations from a re-analysis of the deposited data

How the results depend on the processing

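Of 118 log2 fold changes of the 10 genes under alternatives other than the ERCC spike-ins, 117 kept their direction and their side of the threshold. The exception was *Rapsn* with total counts only, at -0.026. Under a minimum of 10 counts throughout, *Chrne* and *Ache* were not tested, and the other 8 genes were. The number of the 10 genes called higher was 7 with that filter, 6 with the ERCC spike-ins and 9 in the other fits, and 0 were called lower in any fit.

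Scaling to the ERCC spike-ins moved most. It gave 5560 calls over all genes in place of 13510, 32.6% of them higher against 50.8% after TMM. Of the other listed genes, 12 were called higher and 9 lower in place of 35 and 24. *Chrna1* (0.37) and *Chrnb1* (0.095) lost their calls, *Dok7* was at -0.18 and *Rapsn* at -0.50, and 6 of the 10 genes remained called higher. The ERCC share ran from 0.720% to 2.09% within D5, and the cause was not tested. Errors of the log2 fold changes of the 10 genes were 0.51 to 0.92 with this scaling and 0.034 to 0.36 after TMM. A call lost with the spike-ins therefore does not show that a gene was unchanged.

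Without 1 library, edgeR made 13236 to 13599 calls over all genes, and 9 of the 10 genes higher each time. The log2 ratio of *Chrng* to *Chrne*, D5 minus D0, was -2.35, between -2.94 and -2.05 without 1 library, -0.70 with 2 added to each count and -0.19 with 3 (exact permutation p = 0.4), a value chosen after seeing the data. In the D5 order of levels, 7 of 10 genes kept their place without the length correction. Depth limits *Chrne* at D0, with 1 count in 3 libraries.

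The replicate number is shared between groups, but same-numbered libraries correlated in their deviations at 0.0084, 0.13 and 0.062, so the numbers were not taken as pairs. With the number as a block 13558 genes were called, and the block changed no call of the 10 genes. D0 replicate 1 correlated best with D5 replicate 3, and D5 replicate 1 with D0 replicate 3, so not every library correlated best with its own number.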
